A study of Mus musculus with 32 samples.

Results

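Glutamine synthesis, breakdown and transport were followed over the day in brown fat through 5 genes: Glul, Glud1, Slc1a5, Slc38a2 and Slc1a3. They are 5 of the 50686 genes in the count table, and all 5 were among the 15505 genes that passed the filter on low counts. They were chosen by name for their roles, with their levels over the day in these same libraries known, so those levels are given as a description, and no test of them is used to support a statement.

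Interscapular brown adipose tissue (iBAT) was taken from 32 male C57BL/6J mice of 10 weeks, non-fasted, on chow and kept at 22 °C under a light:dark cycle. Time is Zeitgeber time (ZT) in hours, with lights on at ZT0 and off at ZT12, and each of the 8 time points, 3 h apart, had 4 mice and 1 library per mouse. No group differed in genotype or treatment. Lane 2 of the sequencer held the 12 mice of ZT0 to ZT6, lane 3 the 12 of ZT9 to ZT15 and lane 4 the 8 of ZT18 and ZT21, so lane and time of day cannot be told apart between lanes.

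Glutamine is made from glutamate and ammonia by glutamine synthetase, the product of Glul. Glutamate dehydrogenase, the product of Glud1, converts glutamate in mitochondria to alpha-ketoglutarate, which feeds the tricarboxylic acid cycle. Slc1a5 (ASCT2) exchanges glutamine for other neutral amino acids, Slc38a2 (SNAT2) takes up neutral amino acids with sodium and is known to be induced when amino acids are scarce, and Slc1a3 (GLAST, EAAT1) takes up glutamate and is best known from astrocytes.

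Total counts per library lay between 16300770 and 18254659 (median 17418661), and mitochondrially encoded genes took 18.5% to 28.2% of them. The 7 brown adipocyte markers, Ucp1 among them, summed to 3635 to 7499 CPM over the libraries. By JTK_CYCLE (JTK), a rank test for a daily rhythm, 1 of the 7, Ucp1, oscillated at P under 0.05, as did 36.4% of all tested genes. CPM are counts divided by the library's total after TMM scaling and set to a common library size. The 10 skeletal muscle markers ranged from 54.9 to 6015.8 summed CPM, with 12 libraries under 100 CPM.

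The genes lie on 4 chromosomes of GRCm38. Glul (ENSMUSG00000026473) lies at chr1:153899944-153909723 on the plus strand, Glud1 (ENSMUSG00000021794) at chr14:34310727-34345265 on the plus strand, and Slc1a5 (ENSMUSG00000001918) at chr7:16781340-16798274 on the plus strand. Slc38a2 (ENSMUSG00000022462) at chr15:96687392-96699730 and Slc1a3 (ENSMUSG00000005360) at chr15:8634124-8710764 share a chromosome and the minus strand. The exons of Glul overlap those of Teddm2 on the opposite strand over 116 bases (3.49% of its exonic sequence), a gene with 763 counts over all libraries against 1048665 for Glul, and whether the counting used strand is not given in the sources used here. Glul also holds the microRNA gene Mir8114, which had 4 counts.

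RefSeq gives an upstream sequence for 4 of the 5 genes, and Slc1a5 was without an entry in the table used. The 250 bases before the annotated start (GRCm38.p6) are shown for Glul, which had the widest range over the day, for Slc38a2, which peaked latest, and for Slc1a3, which had the smallest amplitude fitted without lane. Capitals mark the only match to the motifs searched, a glucocorticoid half-element in Slc1a3.
Glul, chr1:153899679-153899928, plus strand: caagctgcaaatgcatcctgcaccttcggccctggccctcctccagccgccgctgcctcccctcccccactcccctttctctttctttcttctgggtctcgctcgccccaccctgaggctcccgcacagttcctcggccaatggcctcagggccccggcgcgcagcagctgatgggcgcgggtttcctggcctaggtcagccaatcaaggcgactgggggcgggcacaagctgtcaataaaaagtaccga
Slc38a2, chr15:96699729-96699978, minus strand: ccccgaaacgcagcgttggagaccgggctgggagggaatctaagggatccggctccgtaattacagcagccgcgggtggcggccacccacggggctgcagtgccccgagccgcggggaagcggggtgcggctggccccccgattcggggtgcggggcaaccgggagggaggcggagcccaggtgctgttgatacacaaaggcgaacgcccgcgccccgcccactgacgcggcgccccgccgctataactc
Slc1a3, chr15:8710808-8711057, minus strand: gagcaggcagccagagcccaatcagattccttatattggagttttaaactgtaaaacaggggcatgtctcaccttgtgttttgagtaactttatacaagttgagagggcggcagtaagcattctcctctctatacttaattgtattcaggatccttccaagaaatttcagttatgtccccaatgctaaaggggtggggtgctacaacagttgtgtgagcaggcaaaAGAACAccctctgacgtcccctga
The bases G and C made up 64.8% of the Glul window, 72.0% of that of Slc38a2, 82.0% of that of Glud1 and 44.8% of that of Slc1a3, against a median of 52.4% over 32851 RefSeq windows. On both strands the windows were searched for the E-box CACGTG bound by the clock activators, the D-box TTATGNAA, the glucocorticoid half-element AGAACA and the full glucocorticoid element that contains it, the C/EBP-ATF element TGATGCAAT and the cAMP element TGACGTCA. Of all windows, 6.02% held the E-box, 3.07% the D-box, 16.1% the half-element, 0.167% the C/EBP-ATF element, 1.55% the cAMP element and 0.00913% the full glucocorticoid element. The half-element of Slc1a3 begins 24 bases before the start. The absence of a match says only that these letters are not in these windows.

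Per kilobase of exon, Glul was the most abundant of the 5 at 568 CPM per kb, followed by Slc1a5 at 220, Glud1 at 56.5, Slc1a3 at 15.5 and Slc38a2 at 8.02 CPM per kb. By mean level in CPM, Glul (1887 CPM) ranked 35th and Slc1a5 (918 CPM) 87th of the 15505 tested genes. Glutamine synthesis and exchange were thus represented by highly expressed genes, whereas the sodium-coupled transporter Slc38a2 had a mean of 70.9 CPM.

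Glul had the widest range of the 5 genes, with a low in the early light phase and a high around and after lights off. At ZT3 the 4 mice had 1332.5, 1301.4, 1031.6 and 1187.8 CPM, and at ZT15 they had 2389.7, 2804.8, 2418.5 and 2639.1 CPM. All 4 mice of ZT15 were above all 4 of ZT3, and the means of 2563 ± 196 and 1213 ± 136 CPM (SD, n = 4) stood 2.11-fold apart. The level at ZT12, the start of the dark phase, was within the range of ZT15, with 2547.8, 2650.0, 2471.3 and 2462.5 CPM. At ZT9 the mice were spread widely, from 1635.7 to 2516.1 CPM, with 2 of them at 2326.1 and 2516.1 CPM and the other two at 1635.7 and 1813.5 CPM. At ZT0 they were spread more widely still, at 2152.5, 1499.1, 1753.3 and 1144.2 CPM, so that the SD of 425 CPM was the largest of the 8 time points. In the late dark phase the levels lay between 1646.5 and 2041.4 CPM at ZT18 and between 1604.2 and 2039.9 CPM at ZT21. From highest to lowest mean the order was ZT15, ZT12, ZT9, ZT21, ZT18, ZT0, ZT6 and ZT3, and every neighbouring pair in it overlapped.

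**Figure D1:**
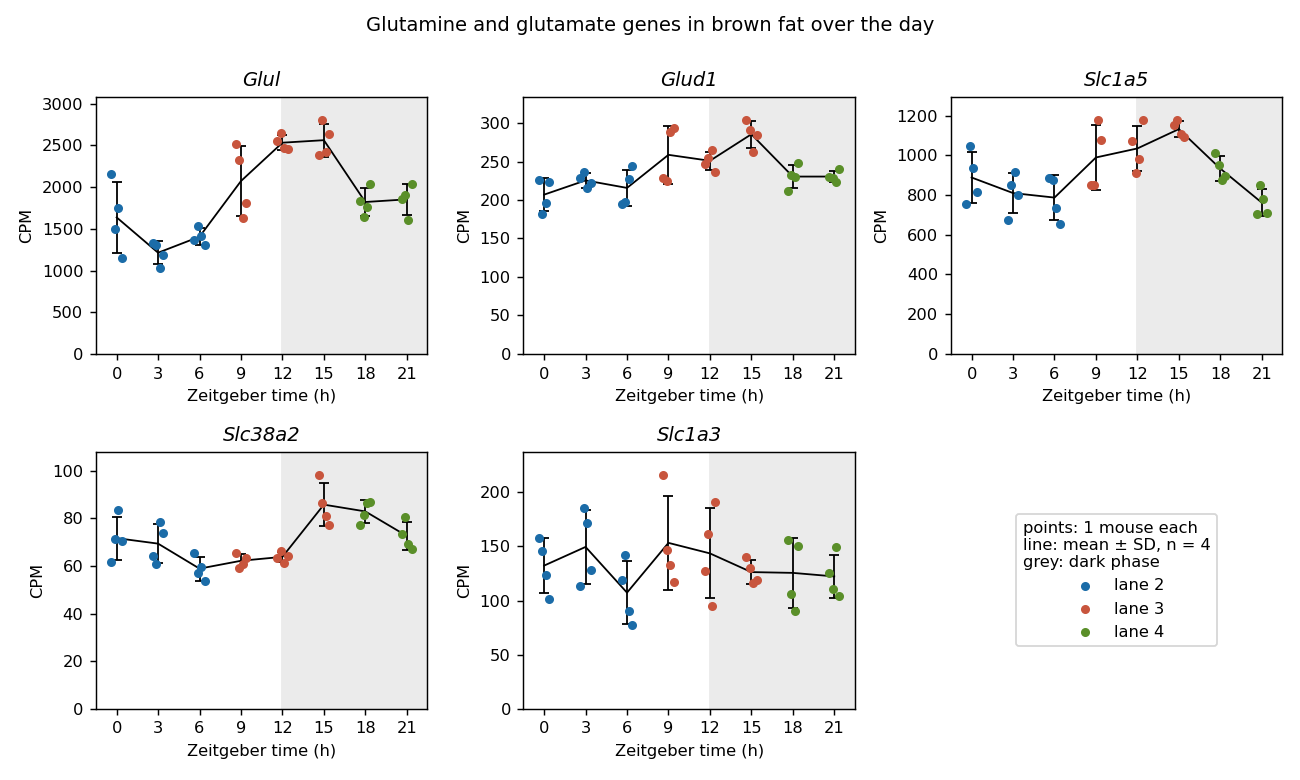
Level in CPM (y axis) of the 5 genes in iBAT against Zeitgeber time in hours (x axis), where each point is 1 mouse coloured by sequencing lane, the line gives the mean and its bars the SD (n = 4), and grey marks the dark phase. Glul ran from 1213 CPM at ZT3 to 2563 CPM at ZT15, Glud1 and Slc1a5 were also highest at ZT15, Slc38a2 had non-overlapping mice at ZT12 and ZT15, and the mice of Slc1a3 overlapped at all time points.

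A 24 h cosine fitted to log2 CPM gave Glul an amplitude of 0.46 ± 0.06 (SE), a fitted peak-to-trough ratio of 1.90 and a peak at ZT14.3 ± 0.49 h. This amplitude was larger than that of 93.2% of the tested genes, a value that the choice of the gene fixes in part. The contrast between the lanes was large for this gene: the mean was 1418.6 CPM over the 12 libraries of lane 2, 2389.6 CPM over the 12 of lane 3 and 1837.4 CPM over the 8 of lane 4. Of the 28 pairs of time points, 16 did not overlap in Glul, and all 16 were pairs on different lanes. None of the 7 pairs within a lane was free of overlap. Over all tested genes, a pair of time points did not overlap in a median of 14.8% of genes (3.38% to 22.9% over the 28 pairs). With lane in the model the amplitude of Glul was 0.26 ± 0.10 (SE) and the peak ZT16.9 ± 1.66 h.

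Glud1 had a narrower range with the same high time point. At ZT0 the mice had 226, 182, 196 and 224 CPM, and at ZT15 they had 304, 291, 262 and 285 CPM. The ranges did not overlap, and the means of 207 ± 21.7 and 286 ± 17.5 CPM (SD, n = 4) were 1.38-fold apart. At ZT9 the mice fell into 228 and 225 against 289 and 293 CPM, which gave that time point the largest SD (37.2 CPM). The lower pair, replicates 1 and 2, were the mice with the higher Glul at ZT9. The other 5 time points had means between 216 and 251 CPM. In order of their means, the time points were ZT15, ZT9, ZT12, ZT21, ZT18, ZT3, ZT6 and ZT0, with overlap between all neighbours. The fitted amplitude was 0.17 ± 0.03 (SE) with a peak at ZT13.3 ± 0.78 h, and with lane in the model it was 0.05 ± 0.06 with a peak at ZT17.0 ± 5.78 h. Glud1 did not overlap in 7 of the 28 pairs of time points, and in none of the 7 within a lane.

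Slc1a5 was highest at ZT15, where the mice had 1153.4, 1177.6, 1108.3 and 1090.8 CPM, and lowest at ZT21, where they had 706, 853, 780 and 710 CPM. The means were 1132 ± 40.0 and 762 ± 69.4 CPM (SD, n = 4), a 1.49-fold difference without overlap. ZT15 was also the time point at which the mice were most alike. On lane 4 the difference of ZT18 (1011.8, 952, 876 and 895 CPM) from ZT21 was 1.23-fold, and these ranges did not overlap. It was the only 1 of the 7 pairs within a lane without overlap for Slc1a5, against 8 of 28 pairs in all. On lane 3 the means were 990 ± 165 CPM at ZT9 and 1035 ± 115 at ZT12, and the mice of both overlapped those of ZT15. The order was ZT15, ZT12, ZT9, ZT18, ZT0, ZT3, ZT6 and ZT21, again with overlap between all neighbours. The fitted amplitude was 0.22 ± 0.05 (SE) with a peak at ZT13.5 ± 0.81 h, and with lane in the model it was 0.23 ± 0.09 with a peak at ZT16.1 ± 1.34 h.

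Slc38a2 was also highest at ZT15, but unlike in Glul, Glud1 and Slc1a5 the next highest mean was that of ZT18 and the level at ZT12 was among the low ones. At ZT12 the mice had 63.5, 66.3, 61.1 and 64.3 CPM, and at ZT15 they had 98.2, 86.3, 81.1 and 77.3 CPM. This step of 1.34-fold lay within lane 3, and so did the step of 1.38-fold from ZT9 (65.4, 59.2, 60.7 and 63.3 CPM) to ZT15, and both were free of overlap. The level stayed at 77.0 to 86.8 CPM at ZT18 and was 67.0 to 80.5 CPM at ZT21. The lowest mean was that of ZT6, with 65.5, 56.9, 59.4 and 53.6 CPM. Between ZT6 and ZT15 the means of 58.9 ± 5.03 and 85.7 ± 9.10 CPM (SD, n = 4) differed 1.46-fold. The order was ZT15, ZT18, ZT21, ZT0, ZT3, ZT12, ZT9 and ZT6, with overlap between all neighbours. The fitted peak was ZT18.4 ± 0.65 h with an amplitude of 0.22 ± 0.04 (SE), and with lane in the model they were ZT18.2 ± 1.06 h and 0.30 ± 0.06. Slc38a2 did not overlap in 9 of the 28 pairs, 2 of them within a lane.

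In Slc1a3 no time point stood apart from another. The highest mean was that of ZT9 with 216, 147, 133 and 117 CPM, and the lowest that of ZT6 with 119, 142, 90.5 and 77.6 CPM. These ranges overlapped, although their means of 153 ± 43.5 and 107 ± 28.9 CPM (SD, n = 4) were 1.42-fold apart. No pair of the 28 was free of overlap. At ZT12 alone the mice ran from 95.1 to 191 CPM. The order of the means was ZT9, ZT3, ZT12, ZT0, ZT15, ZT18, ZT21 and ZT6. The fitted amplitude was 0.05 ± 0.09 (SE), so that the fitted peak at ZT9.13 had a standard error of 6.54 h and carries no timing. With lane in the model the amplitude was 0.29 ± 0.20 with a peak at ZT1.30 ± 1.67 h.

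Counted over the 5 genes, 4 oscillated by JTK at P under 0.05, against 36.4% of all tested genes, and the same 4 passed after Benjamini-Hochberg (BH) adjustment (27.1% of all), all but Slc1a3. With lane in the model edgeR's cosine test called 1 of the 5, Slc38a2 (17.2% of all). On lanes 2, 3 and 4 taken singly 0, 1 and 0 were called (13.3%, 1.93% and 4.48% of all), and the gene on lane 3 was Slc38a2. Since these time courses were used in choosing the genes, nothing is read from the counts. In early dark against early light, ZT15 against ZT3, the values of 3 of the 5 genes (Glul, Glud1 and Slc1a5) did not overlap, against 17.3% of all tested genes. The log2 differences ZT15 minus ZT3 were 1.08 ± 0.14 (SE) for Glul, 0.48 ± 0.12 for Slc1a5, 0.34 ± 0.09 for Glud1, 0.31 ± 0.09 for Slc38a2 and -0.24 ± 0.22 for Slc1a3. For ZT12 minus ZT0 they were 0.63 ± 0.14 for Glul, 0.28 ± 0.09 for Glud1, 0.22 ± 0.12 for Slc1a5, 0.12 ± 0.22 for Slc1a3 and -0.17 ± 0.09 for Slc38a2. Glul, Glud1 and Slc1a5 had the higher mean in the dark phase member of both pairs, although the mice of Slc1a5 overlapped at ZT12 and ZT0, whereas Slc38a2 had the higher mean at ZT15 than at ZT3 and the lower at ZT12 than at ZT0, with overlap in both.

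Markers of other cells moved over the same hours. The 4 white fat markers (Lep, Retn, Nnat and Agt) summed to 46.8 to 79.0 CPM at ZT6 and to 212 to 418 CPM at ZT15, the lowest and the highest of the 8 time points, and 2 of the 4 oscillated by JTK. Leptin rose from 23.8 ± 5.82 to 199 ± 56.3 CPM (SD, n = 4) over those 9 h and made up most of the sum at ZT15. Retn (56.6 CPM at ZT3 and 38.3 at ZT15) and Agt (2.89 and 2.59 CPM) had their highest means at ZT3 and did not pass the JTK test. The summed skeletal muscle markers were 638 to 5929.5 CPM at ZT15, the only time point with no library under 100 CPM, and none of the 10 oscillated. With the muscle sum as a covariate, added after the data were seen, the amplitude of Glul was 0.45, that of Slc1a5 0.22, that of Slc38a2 0.21 and that of Glud1 0.16. The part of the white fat markers in these courses was not tested, and in bulk tissue fewer cells of a type and less RNA per cell cannot be told apart. The 7 markers of glia and Schwann cells, cells that also express Slc1a3, summed to 92.9 to 301 CPM, and 1 of the 6 tested oscillated. Of the stroma markers 4 of 5 oscillated (226 to 727 summed CPM), of the endothelial markers 3 of 6 (807 to 1197.2), of the macrophage and leukocyte markers 1 of 7 (36.1 to 226) and of the blood markers 0 of 5 by JTK (265 to 1137.3), of which none passed edgeR's cosine test either. These marker counts are at JTK P under 0.05, which 36.4% of all tested genes passed. After BH adjustment only Pdgfra of the stroma markers passed (JTK BH 0.0133), and the macrophage marker Csf1r did not (JTK BH 0.102). The endothelial markers Emcn, Flt1 and Kdr still passed.

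The genes most like each member, by Pearson r of log2 CPM over the 32 libraries among 8527 genes of at least 10 CPM, are given as a description of libraries that share depth and lane. For Glul the first was Glns-ps1 (r = 0.964), an annotated processed pseudogene of glutamine synthetase on chromosome 11. It had 12134 counts, 1.16% of those of Glul, and 5.59% of its 100-base stretches also occur in Glul transcripts, so reads may be shared between them and its likeness is uncertain. Next came Slc25a33 (0.858), a mitochondrial pyrimidine nucleotide carrier, Retsat (0.851), Acad11 (0.845) and Pdxk (0.844), with fitted peaks between ZT13.4 and ZT14.7. For Glud1 they were Agmo (0.910), Bcat2 (0.885), Sntb2 (0.840), Selenbp1 (0.835) and Ndrg2 (0.830). Bcat2, the mitochondrial branched-chain transaminase that makes glutamate, thus stood second of 8527 beside glutamate dehydrogenase. A pseudogene of Glud1, Glud-ps, had 3.05% of its counts, and 2.84% of the 100-base stretches of Glud1 occur in other genes. For the 3 transporters no such stretch occurred in another gene.

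Slc1a5 was most like Zfp467 (0.810), Slc20a1 (0.779), Rhobtb1 (0.773), Pfkfb1 (0.754) and Cdc42ep4 (0.749), and the genes most like Slc38a2 included Plekha8 (0.748), Smtnl2 (0.746), Gm32817 (0.729) and Hspa8 (0.726). Slc1a3 had among its most like genes Steap4 (0.774), Xbp1 (0.743), Net1 (0.737) and Mpp1 (0.730). When the time-point means were subtracted, these 4 genes were again among the first 5 for Slc1a3, with Net1 at r = 0.865, Xbp1 at 0.795, Steap4 at 0.785 and Mpp1 at 0.780. The likeness of Slc1a3 to these genes was thus found between mice killed at the same hour. For Glul the list after subtraction was Atp6v1d (0.859), Glns-ps1 (0.841), Gm9816 (0.801), Acss3 (0.796) and Orc3 (0.792), and Glns-ps1 was the only gene in both lists. Glud1 kept Agmo (0.809) beside Rnf152 (0.830), Oxct1 (0.819), mt-Co1 (0.806) and Rfk (0.790). Slc1a5 kept Zfp467 (0.804) and Slc20a1 (0.740), and Slc38a2 kept none, with Trim32 first (0.727).

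Whether the 5 genes vary together between mice of one time point was not used in choosing them and was tested. Over the 10 pairs of genes and the 5 relations of each gene with the summed muscle markers, no relation passed 0.05 after BH adjustment over 15 (permutation of mice within time points, 100000 resamples, two-sided, n = 32). The lowest p was that of Glud1 with Slc1a3, with r = -0.476 (permutation p = 0.0198, BH 0.297) and Spearman's rho = -0.468 (permutation p = 0.0194). Leaving out the pair of libraries whose Glud1 deviation lay farthest from the median deviation gave -0.473 (permutation p = 0.0373). On lanes 2, 3 and 4 taken singly r was -0.513, -0.531 and -0.257, with exact permutation p, here and below not adjusted, of 0.134, 0.110 and 0.694. Next by p came Glul with Slc1a3 (r = 0.362, permutation p = 0.0621, BH 0.384, rho = 0.288, and 0.245 without the pair chosen likewise by Glul) and Slc1a5 with Slc38a2 (r = 0.355, permutation p = 0.0854, BH 0.384, rho = 0.314, and 0.268 without the pair chosen likewise by Slc1a5). Glul, highest in the same hours as Slc1a5, had r = -0.398 with it between mice of one time point (permutation p = 0.102, BH 0.384), rho = -0.396 (permutation p = 0.0801), and -0.476 without the same pair by Glul (permutation p = 0.0533). That relation was negative within each lane, at -0.189, -0.789 and -0.255 (exact permutation p = 0.646, 0.0497 and 0.580), and positive at 2 of 8 time points. On lane 3 the mice of ZT9 stood apart. Replicates 1 and 2 deviated by 0.302 and 0.188 in Glul and by -0.200 and -0.203 in Slc1a5. Replicates 3 and 4 deviated by -0.320 and -0.171 in Glul and by 0.267 and 0.137 in Slc1a5. Glud1 and Slc1a5, with a pooled r of -0.214 (permutation p = 0.386, BH 0.647), differed in sign between the lanes, with r = -0.852 on lane 2, 0.606 on lane 3 and -0.589 on lane 4 (exact permutation p = 0.00470, 0.271 and 0.104). That difference between lanes was not tested. Within single time points r of Glud1 and Slc1a5 was positive at 2 of 8. At ZT9, on lane 3, Glud1 lay on the side of Slc1a5 in each mouse, at -0.172 and -0.189 in replicates 1 and 2 and 0.170 and 0.191 in replicates 3 and 4. The r of lane 3 without ZT9 was not computed for either relation. Slc1a3 had r = 0.664 with Slc1a5 on lane 2 and 0.471 with Slc38a2 on lane 3 (exact permutation p = 0.0434 and 0.0187), against 0.276 and 0.085 over all libraries (permutation p = 0.210 and 0.653). With the muscle markers, r of the 5 genes lay between -0.076 and 0.189 (lowest permutation p = 0.367).

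**Figure D2:**
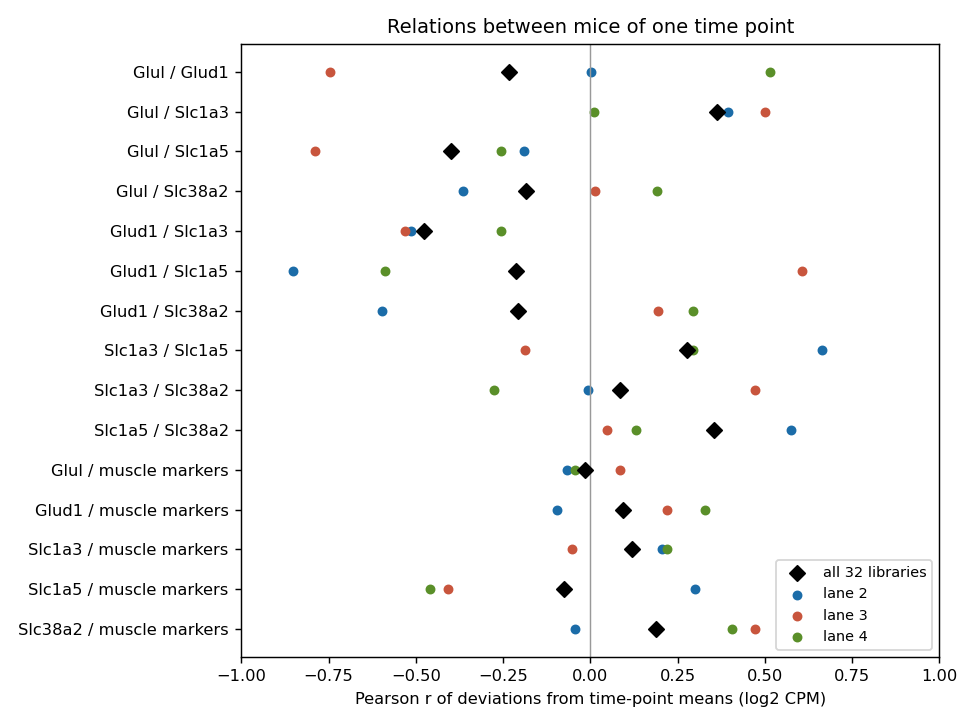
Pearson r (x axis) of deviations from time-point means in log2 CPM for the 15 relations (y axis), with black diamonds for all 32 libraries and coloured points for the libraries of each lane. The diamonds run from -0.476 for Glud1 with Slc1a3 to 0.362 for Glul with Slc1a3, and the lanes scatter widely around them.

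Around the 5 genes, a list of 51 other genes of glutamine and glutamate metabolism held 43 that were tested. By JTK 20 of them oscillated at P under 0.05 (36.4% of all tested genes did) and 14 after BH adjustment (27.1% of all). With edgeR's quasi-likelihood test, 20 had a 24 h cosine component (36.1% of all tested genes did) and 22 differed between time points (39.8% of all). The median amplitude was 0.15 on the log2 scale against 0.14 over all tested genes, and 8 of the 20 JTK calls (40.0%) peaked in the dark phase against 49.4% of all calls. With lane in the model 8 of the 43 were called (17.2% of all). Within single lanes 7 of 42 were called on lane 2 (13.3% of all), 2 of 42 on lane 3 (1.93%) and 3 of 39 on lane 4 (4.48%). On lane 3 the 2 genes were Prodh and Pycr1, and Pycr1 had a mean of only 0.595 CPM. The counts on lanes 3 and 4 rested on single mice. Lane 3 gave 0 without replicate 2, 3 or 4 of ZT15, 1 without any other of its libraries but replicate 3 of ZT9 and replicate 1 of ZT15, and 2 without either of those. Lane 4 gave 0 without replicate 1 or 2 of ZT18 or 1 or 4 of ZT21, 1 without replicate 4 of ZT18 or 2 or 3 of ZT21, and 2 without replicate 3 of ZT18. With library size alone in place of TMM, or with no filter on low counts, lane 3 gave 1. Lane 2 gave 11 without replicate 4 of ZT0.

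**Figure D3:**
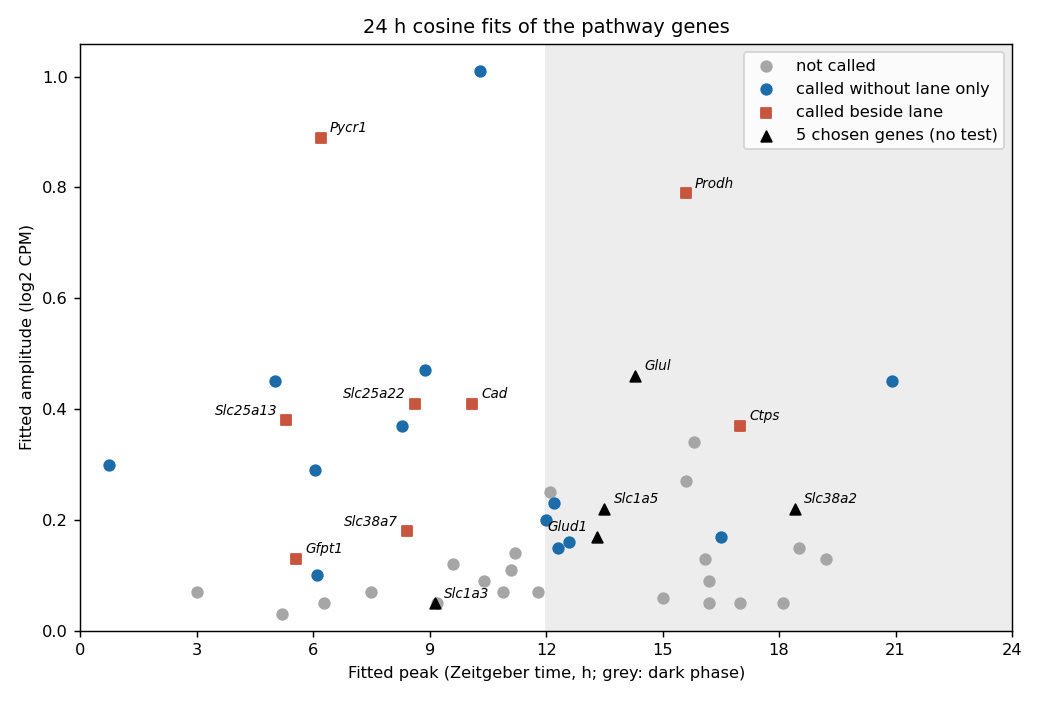
Fitted log2 amplitude (y axis) against fitted peak in Zeitgeber time (x axis, grey for the dark phase) from a 24 h cosine, for the 5 chosen genes (black triangles) and the 43 other tested genes of the list, with red squares for genes called with lane in the model. Glul, Glud1 and Slc1a5 lie between ZT13.3 and ZT14.3, Slc38a2 at ZT18.4, and of the 8 red squares only Prodh and Ctps lie in the dark phase.

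By role, 5 of the 8 other tested transaminase and glutamate-converting genes oscillated by JTK at P under 0.05, as did 36.4% of all tested genes, and the counts of the other roles are to be read against the same share. Among them Bcat2 peaked at ZT12.2 with an amplitude of 0.23 ± 0.05 (SE, edgeR cosine BH 0.00166), and Abat, which degrades the transmitter GABA, peaked at ZT5.02. In proline and glutathione metabolism 3 of 7 oscillated. Pycr1 had the largest amplitude (0.89) but a mean under 1 CPM, and among genes of at least 1 CPM it was largest in Prodh, whose product oxidises proline on the way back to glutamate. Prodh rose from 18.5, 19.7, 20.5 and 21.3 CPM at ZT6 to 68.6, 78.3, 62.6 and 68.4 CPM at ZT15. Its peak was ZT15.6 ± 0.31 h and its amplitude 0.79 ± 0.06 (SE), with an edgeR BH of 3.22e-10 for the cosine and 2.28e-05 with lane in the model. Of the 13 glutamine-using enzymes 6 oscillated. Ctps, which makes CTP with glutamine, peaked at ZT17.0, while Cad, which starts pyrimidine synthesis, peaked at ZT10.1 with a mean of 74.3 ± 13.0 CPM at ZT9 against 37.2 ± 1.63 at ZT0 (SD, n = 4). Gfpt1, which starts hexosamine synthesis, had an amplitude of 0.13 and a peak at ZT5.56. Aldh18a1, which starts proline synthesis from glutamate, had 0.29 and ZT6.05, and was not called with lane in the model (edgeR cosine BH 0.205).

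Of 10 other tested glutamine transporters 3 oscillated, Slc7a8 with an amplitude of 1.01 and mice between 5.88 and 35.3 CPM at ZT9 alone, Slc38a7 with 0.18, and Slc38a1, which was under 1 CPM. With lane in the model Slc38a7 was called (edgeR cosine BH 0.0221), and Slc7a8 (0.488) and Slc38a1 (0.201) were not. Of the other glutamate transporters only Slc1a1 passed the filter. Its fitted peak was ZT20.9, and it was not called with lane in the model (edgeR cosine BH 0.275). Slc1a2, Slc1a6, Slc1a7 and Slc7a11 had 15, 4, 13 and 23 counts over all libraries, so that Slc1a3 was the main transcript of its group by count. Of the 3 tested mitochondrial carriers 2 oscillated, and the glutamate carrier Slc25a22 peaked at ZT8.61 with 166 ± 46.6 CPM at ZT9 and 82.9 ± 3.86 at ZT18 (SD, n = 4).

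**Figure D4:**
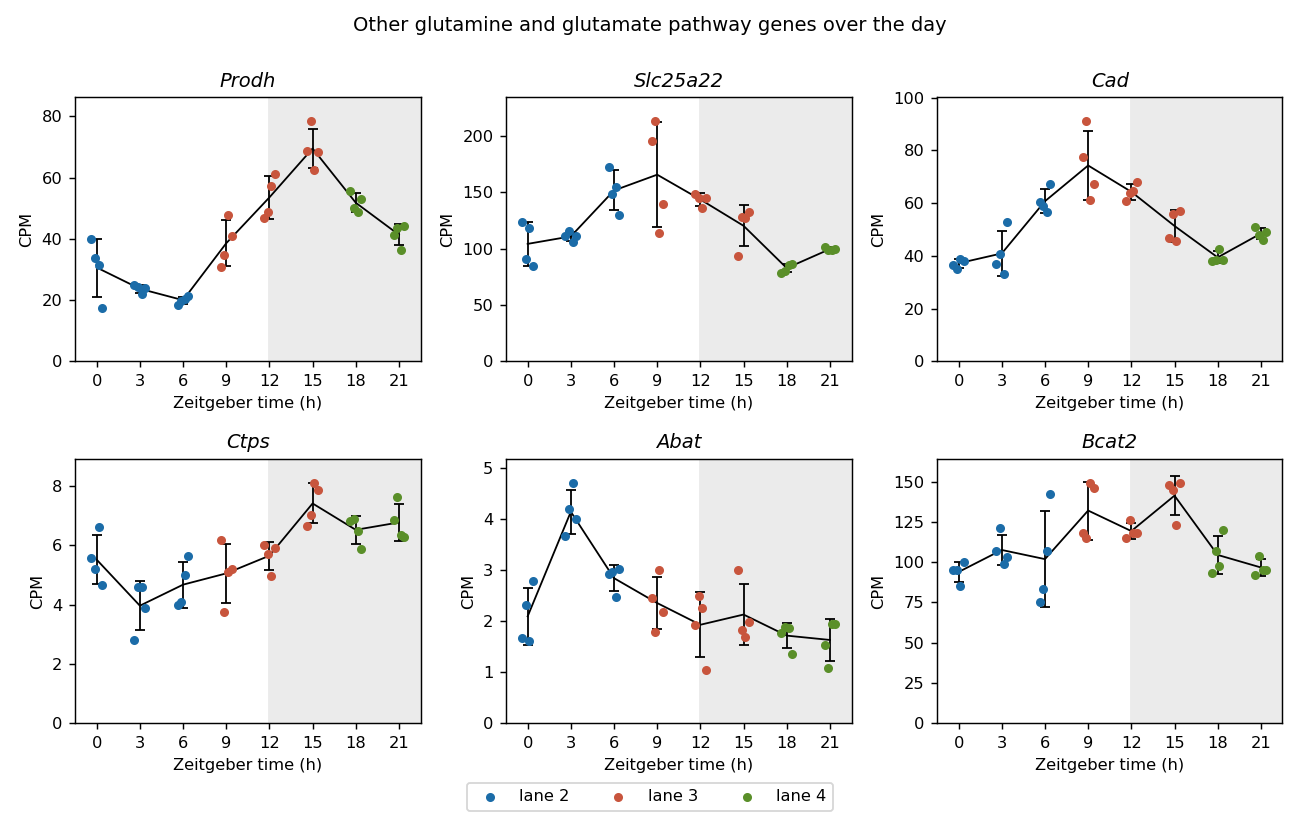
Level in CPM (y axis) of 6 other genes of the list against Zeitgeber time in hours (x axis), where each point is 1 mouse coloured by lane, the line gives the mean and its bars the SD (n = 4), and grey marks the dark phase. Prodh was highest at ZT15 and Cad and Slc25a22 at ZT9, while Abat was highest at ZT3.

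ZT12 against ZT0, the start of the dark against the start of the light phase, and ZT15 against ZT3 were compared with edgeR's quasi-likelihood test. Both contrasts set libraries of lane 3 against libraries of lane 2, so lane and time of day cannot be told apart in any of their calls. At ZT12, 6 of the 43 were higher (7.71% of all tested genes): Cad, Ppat, Prodh, Slc25a22, Slc38a1 and Slc7a6. Without replicate 2 or 3 of ZT0 or replicate 4 of ZT12 there were 3, and also with no filter on low counts. None was lower (8.15% of all), with 0 also at an unadjusted p under 0.05 and 0 by DESeq2. At ZT15, 8 were higher than at ZT3 (6.89% of all), namely Bcat2, Cad, Ctps, Gpt, Oat, Pfas, Ppat and Prodh, and 4 were lower (7.28% of all), namely Abat, Pycr1, Slc1a4 and Slc25a13. Fitted with the 8 libraries of the contrast only, 7 genes were called in place of these 12. The largest rise was that of Prodh, by 1.55 ± 0.15 (SE) on the log2 scale (edgeR BH 1.26e-07), and among genes of at least 1 CPM the largest fall was that of Slc1a4, by 1.11 ± 0.17 (edgeR BH 6.86e-05), with a mean of 4.95 CPM at ZT3 and means of at most 2.38 CPM at the other time points. The median log2 difference over the 43 was 0.12 at ZT15 and 0.11 at ZT12, against -0.01 and 0.00 over all tested genes. The call of Cad at ZT15 (BH 0.0456) was lost without single libraries in 21 of 32 cases and that of Bcat2 (BH 0.0415) in 7 of 32, while Abat, Ctps and Prodh kept theirs in all 32. For the other genes called at ZT15, among them Oat (BH 0.0488), the calls without single libraries were not computed.

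**Figure D5:**
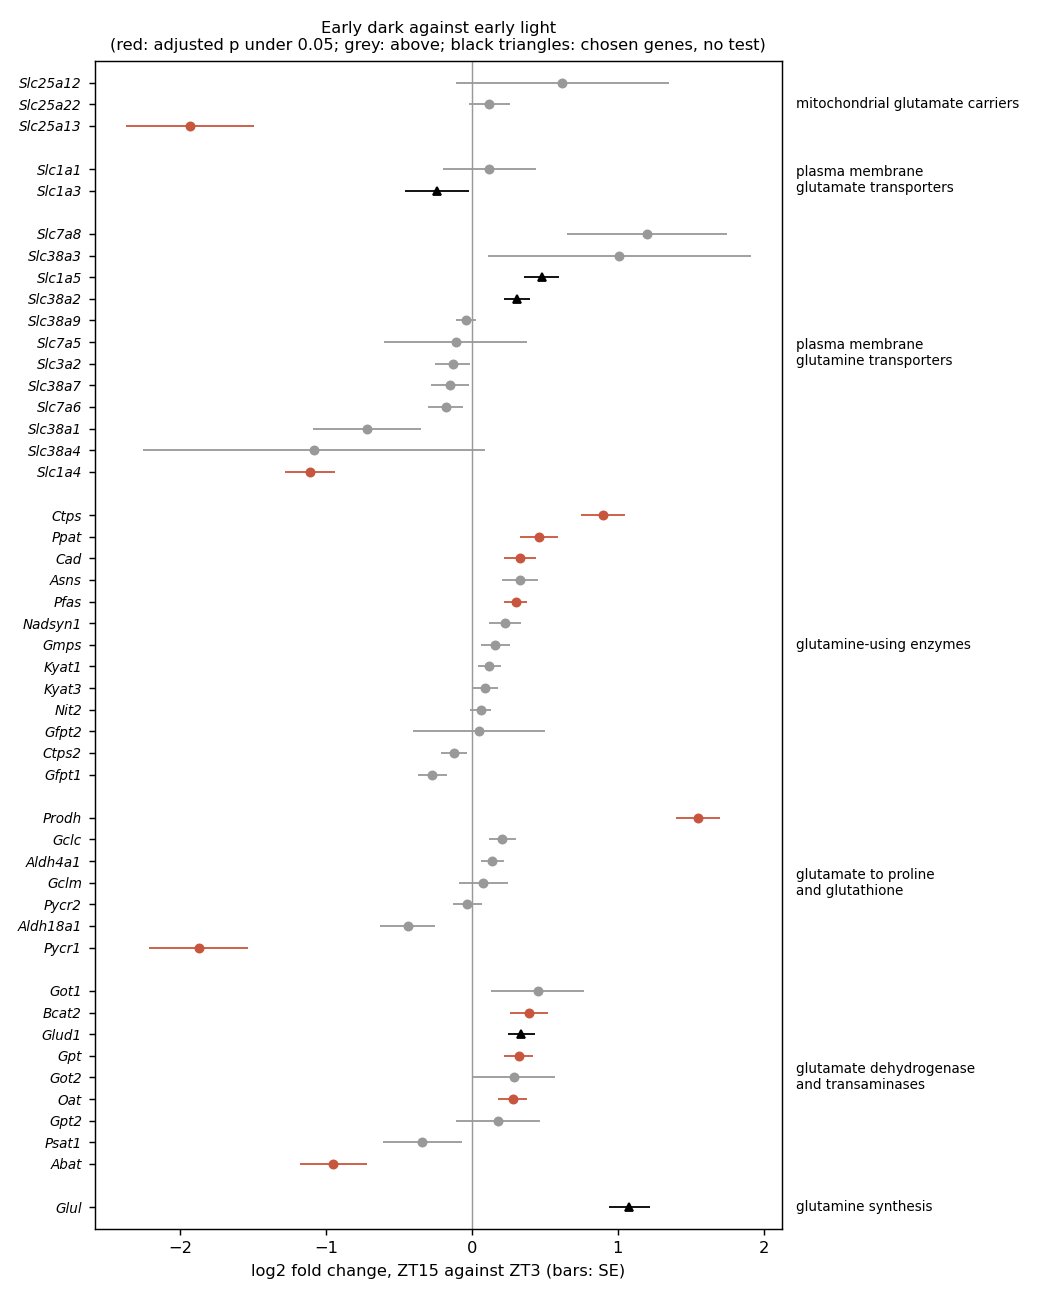
log2 fold change of ZT15 against ZT3 (x axis) with its SE for tested genes of the list (y axis), grouped by role, with red for genes past an adjusted p of 0.05 in edgeR's quasi-likelihood test, grey for the others and black triangles for the 5 chosen genes. Glul at 1.08 and Prodh at 1.55 lie farthest to the right among genes with an SE under 0.2, and 4 of the 5 chosen genes lie above 0.

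Genes known to respond to the same signals as members of the 5 are given beside them. Glul is a known target of glucocorticoids. Of 7 glucocorticoid-responsive genes 6 oscillated by JTK at P under 0.05, as did 36.4% of all tested genes, and Sgk1 did not pass after BH adjustment (JTK BH 0.115). The counts below are to be read against the same share. The summed level of the 7 was lowest at ZT0 (163 to 232 CPM) and highest at ZT12 (391 to 529 CPM). Tsc22d3 had its fitted peak at ZT15.4 and Fkbp5 at ZT15.3, against ZT14.3 for Glul, while Per1 peaked at ZT11.5, Klf9 at ZT10.7, Sgk1 at ZT9.63 and Mt2 at ZT6.78. Slc38a2 is a known target of ATF4, and Atf4 itself had its fitted peak at ZT19.0, against ZT18.4 for Slc38a2, while the other 3 oscillating genes of the amino acid response list peaked at ZT2.39 (Atf5), ZT4.59 (Trib3) and ZT10.6 (Phgdh). The summed level of 7 genes of the amino acid response was lowest at ZT12 (163 to 183 CPM) and highest at ZT0 and ZT6 (206 to 319 and 227 to 334 CPM). Atf5 made up most of that sum at ZT0 and ZT6, with means of 147 and 158 CPM, whereas Atf4 had its lowest mean at ZT6 (52.7 CPM). Of the 7, 4 oscillated at P under 0.05, and Phgdh did not pass after BH adjustment (JTK BH 0.0528). The 6 clock genes oscillated as well, with Arntl at 34.4 ± 4.07 CPM at ZT0 and 1.15 ± 0.20 at ZT12, and Dbp at 4.46 ± 0.80 CPM at ZT0 and 171 ± 42.7 at ZT9 (SD, n = 4).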

How the data were processed

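The deposited file was a table of raw read counts per Ensembl gene, which the authors made by mapping to mm10 with GSNAP and counting over Ensembl genes with HTSeq (0.6.1), per the paper and the submitters' processing notes. The labels give stranded libraries; whether counting used the strand is not given in the sources used here. Symbols and coordinates came from GENCODE vM21.

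Counts were filtered with filterByExpr (time point as group), scaled with TMM and tested with edgeR (4.0.16, R 4.3.3) quasi-likelihood fits with Benjamini-Hochberg adjustment over all tested genes at 0.05. The fits were a 24 h cosine with and without lane, the 8 time points, each lane alone, and 2 contrasts with the spread of all 32 libraries. JTK_CYCLE was an own implementation on CPM (periods 21 and 24 h, 15 templates, P adjusted over templates). Amplitudes used log2 CPM with a prior count of 2. Relations used Python (numpy, scipy) with 100000 resamples, or exact enumeration within lanes. The fits across genes were first run on simulated counts with known changes and no lane effect, so that run says nothing about lane.

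The members and gene lists were chosen with earlier results of these data known. Named genes besides the 5 were, per role group, the 3 with the largest amplitude past JTK BH 0.05 at a mean of at least 1 CPM, the 5 likest genes of each member (some are not reported here), and the reference and marker genes; Pycr1, Slc1a4, Slc38a1 and the genes listed as called in a contrast or lane were named after their values were seen. Alternatives were DESeq2 (1.42.0), DESeq2 size factors or library size for TMM, no filter, removal of mitochondrial genes, a prior count of 0.5, JTK at P under 0.01 or with the 24 h period only, Spearman for Pearson, only the 8 libraries of a contrast, a replicate block, single libraries left out and, added after the data were seen, the muscle sum as a covariate. No pair of libraries of one time point differed as little as counting noise (lowest mean chi-square per gene 7.63 over 48 pairs), so all 32 counted as samples. Each library came from its own mouse, so p-values measure the spread between mice.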

Additional observations from a re-analysis of the deposited data

Results flagged for a closer look

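In 128 groups of 4 mice (5 chosen and 11 named pathway genes at 8 time points), a mouse stood far from the other 3 of its time point in 6 cases, where chance flags about 1 in 20 groups. None was in the 5 chosen genes. At ZT15 these were Bcat2 in replicate 3 (123 CPM, the others 145 to 149), Slc38a7 in replicate 1 (15.0 CPM, the others 8.92 to 9.73) and Slc25a22 in replicate 1 (93.6 CPM, the others 127 to 133). The other cases were Abat in replicate 3 of ZT6 (2.47 CPM, the others 2.92 to 3.01), Slc1a1 in replicate 1 of ZT12 (6.79 CPM, the others 3.02 to 3.56) and Cad in replicate 3 of ZT18 (42.8 CPM, the others 38.0 to 38.6).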

How the results depend on the processing

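Leaving out single libraries gave Slc1a3 an amplitude of 0.00 to 0.10 and a peak of 5.92 to 11.8 h, within the errors of its fit. With lane in the model the amplitude of Slc1a3 was 0.29 and that of Slc38a2 0.30, the amplitude of Glul was 0.26 and its peak 16.9 h after lights on, that of Glud1 0.05 and 17.0 h, and the peak was 16.1 h for Slc1a5 and 1.30 h for Slc1a3. The replicate numbers were not found to pair the mice: same-numbered libraries of ZT12 and ZT0 had r of -0.382 to 0.425, those of ZT15 and ZT3 -0.336 to 0.445, and 8 of 32 libraries correlated best with their own number. With the replicate block the list gave 21 JTK calls, 20 cosine calls, 18 time point calls, 5 calls for ZT12 against ZT0, 12 for ZT15 against ZT3, 8 on lane 2, 1 on lane 3 and 0 on lane 4, and 8 with lane in the model. Lane 3 also gave 1 call with library size alone, with no filter and with the muscle sum as a covariate. With no filter, ZT12 against ZT0 gave 3 calls. JTK at P under 0.01 gave 13, and ZT15 against ZT3 gave 7 with the 8 libraries of the contrast only. Leaving out each library in turn gave 3 to 7 calls for ZT12 against ZT0 (3 without replicate 2 or 3 of ZT0 or replicate 4 of ZT12), 5 to 11 on lane 2 (11 without replicate 4 of ZT0), 0 to 2 on lane 3 and 0 to 2 on lane 4. The log2 difference of Slc1a1 at ZT15 lay between -0.06 and 0.55, and was -0.06, -0.01 and -0.04 without replicate 2 of ZT3 and replicates 2 and 4 of ZT15. Of relations that did not pass the test, Glul with muscle markers (-0.015) was 0.060 by Spearman, 0.038 with library size alone, 0.022 with the replicate block and -0.091 to 0.171 without single libraries. With library size alone Glud1 had 0.112 with Slc1a5 and 0.111 with Slc38a2. Without single libraries Glul with Slc38a2 ran from -0.284 to 0.021 and Slc1a5 with muscle markers from -0.190 to 0.000. The causes were not tested. Genes near or under 1 CPM, such as Pycr1 and Slc25a13, rest on few reads. The 4 mice per time point limit what single time points can show.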
